A study of Mus musculus with 33 samples.

Results

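Voltage-gated calcium and sodium channel genes were followed in bulk RNA sequencing of the mouse nucleus accumbens, a ventral striatal region. The genes were those whose symbol begins with Cacna, Cacnb or Cacng, or is Scn with a number and a or b, and whose count was at least 10 in at least 5 of 33 libraries. Of 39 symbols of that form 36 met the count rule, among 24053 genes in the table. Cacna1f, Cacng6 and Scn4a did not: their highest counts in a library were 8, 10 and 2. Just inside the rule stood Cacng1, with 10 or more reads in 9 libraries, Scn11a in 10 and Scn10a in 11. The table lists the neuronal sodium channel gene Scn2a under its older symbol Scn2a1, which does not have that form, so it is treated here with the channels' partners.

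All mice were of the strain C57BL/6J, 7 to 9 weeks old, and 1 library stands for 1 mouse here, following the titles. Germ-free mice (GF) were bred in isolators, and gave 5 libraries after morphine and 6 after saline. Mice with a depleted microbiome (Abx) drank vancomycin and bacitracin at 0.5 mg/mL each, neomycin at 2 mg/mL and the antifungal pimaricin at 1.2 µg/mL, and gave 5 libraries after morphine and 6 after saline. Conventional mice on plain water (H2O) likewise gave 5 libraries after morphine and 6 after saline. Morphine was given at 20 mg/kg per day for 7 days, and saline on the same schedule. GF mice came from an in-house colony and the others from a commercial supplier, so germ-free status and breeding facility cannot be told apart. Drinks were given to whole cages, and the labels name neither the cage nor a batch.

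A voltage-gated calcium channel is built around a pore-forming alpha1 subunit. L-type channels couple depolarisation to signalling in the cell body, P/Q-, N- and R-type channels supply calcium for transmitter release, and T-type channels open near the resting potential. Beta and alpha2delta subunits bring the pore to the membrane and set its gating. The gamma genes are named after a muscle channel subunit, but Cacng2, Cacng3, Cacng4, Cacng5, Cacng7 and Cacng8 code for auxiliary subunits of AMPA-type glutamate receptors. Sodium channels carry the upstroke of the action potential and pair a pore-forming alpha subunit with beta subunits. Most accumbens neurons are medium spiny neurons, which in mice express the beta subunit Scn4b strongly. In bulk tissue, fewer cells of a type and less RNA per cell cannot be told apart.

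Reads in genes numbered 4.87 to 15.3 M per library. GF libraries were the shallowest, with means of 6.63 M after morphine and 8.32 M after saline, against 10.4 to 12.7 M in the other groups. GF saline replicate 1 held 15.3 M reads, more than any other GF library. GF saline replicate 5 had the lowest summed level of 10 medium spiny neuron markers, 2370.4 CPM (counts per 1 M reads in genes, after scaling). The sum in the H2O saline libraries was 5325 CPM or more. All 10 markers passed the filter on low counts.

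The channel genes spanned more than 3 orders of magnitude in level. Expressed per kilobase (kb) of the longest annotated transcript and averaged over the 33 libraries, the sodium beta subunit gene Scn4b was highest at 184 CPM per kb. Its neighbour Scn2b stood at 90.3 CPM per kb. Among calcium channel genes the alpha2delta gene Cacna2d3 led with 92.3 CPM per kb, ahead of the beta genes Cacnb3 at 65.6 and Cacnb1 at 62.0 CPM per kb. Pore genes were lower per kb. Among the sodium alpha genes that met the symbol rule, which leaves out Scn2a1, the highest was Scn8a, whose channel sits at the axon initial segment, with 28.5 CPM per kb, and the highest alpha1 gene was the R-type gene Cacna1e with 19.6 CPM per kb. The P/Q-type gene Cacna1a stood at 17.3 ± 1.91 and the N-type gene Cacna1b at 16.1 ± 1.83 CPM per kb (SD over 33 libraries of 6 groups). Their order varied between groups, with means of 17.8 and 14.3 in H2O saline but 17.5 and 17.7 in Abx morphine libraries.

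At the low end were Scn11a at 0.115, Scn10a at 0.121 and Scn7a at 0.137 CPM per kb. Scn10a and Scn11a are sodium channel genes of sensory neurons, and Scn7a codes for an atypical channel of salt-sensing glia. Cacna1s, the L-type gene of skeletal muscle, stood at 0.182 CPM per kb. No library held more than 26 reads of Scn10a, 33 of Scn7a, 23 of Cacna1s, 17 of Cacng1 or 14 of Scn11a, and Scn11a was too low to be tested.

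**Figure D1:**
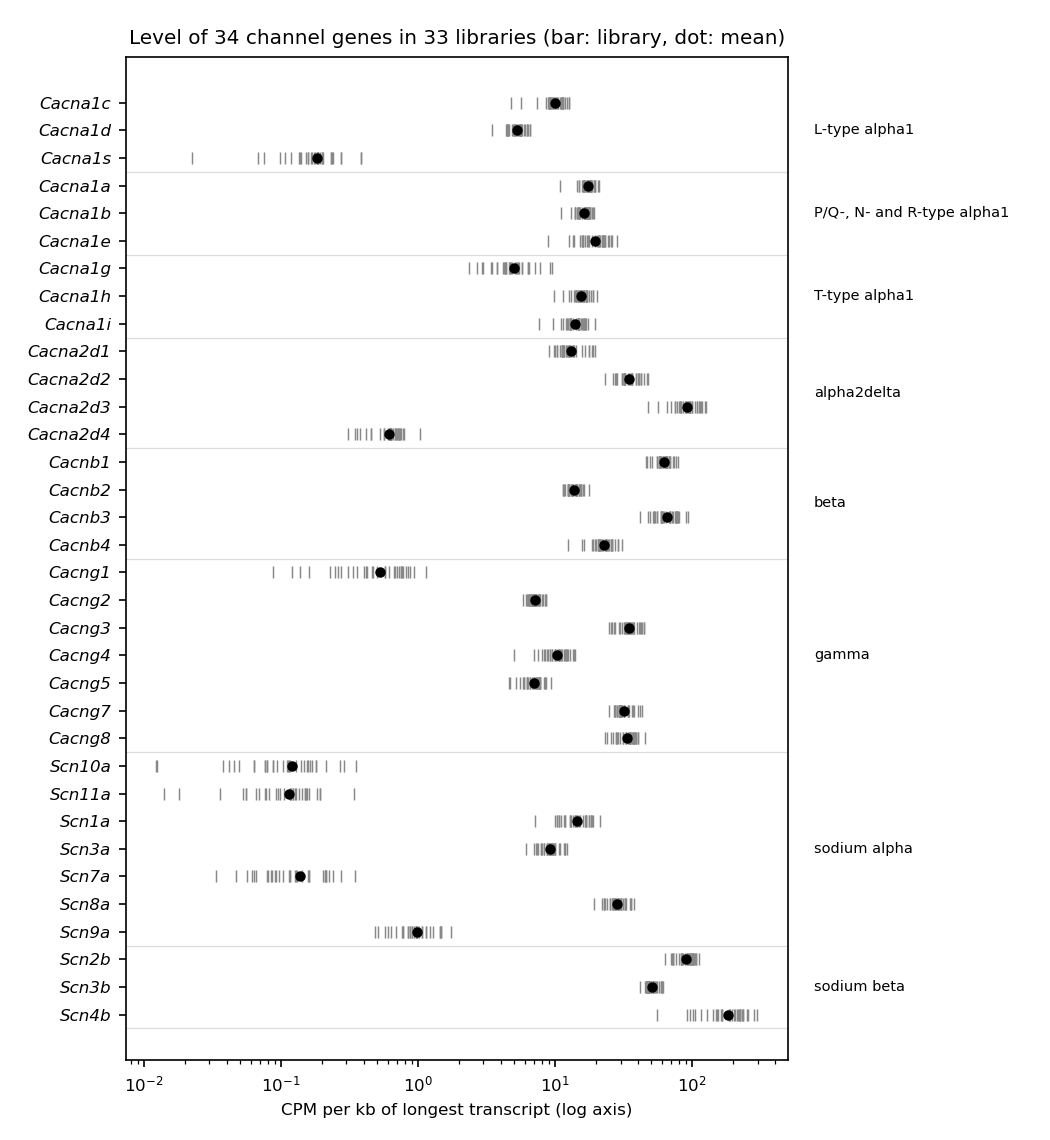
Level of 34 of the channel genes by subfamily, in CPM per kb of longest transcript on a log axis. Each bar is a library and each dot the mean of the 33 libraries. Scn4b had the highest mean, 184 CPM per kb, and Scn11a the lowest, 0.115 CPM per kb.

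GF mice given saline were first set against H2O mice given saline, which differ in microbiome and in breeding facility. The sodium channel pore genes Scn1a, Scn3a and Scn7a were higher in GF mice before any correction for transcript length and GC content, while the AMPA receptor auxiliary genes Cacng7 and Cacng8 and the calcium channel beta gene Cacnb3 were lower. By edgeR's quasi-likelihood test with Benjamini-Hochberg adjustment over 14602 genes, 10 of 35 tested channel genes passed an adjusted p of 0.05, beside 32.9% of all genes. The 7 channel genes that rose are 20.0% of those tested, against 18.0% of all genes, and the 3 that fell are 8.57%, against 15.0% of all genes. The share of channel genes called was therefore near that of all genes. Their median log2 fold change was 0.07, and that of all genes 0.01.

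By subfamily, the sodium alpha genes Scn1a, Scn3a and Scn7a rose and no gene of that family fell. Of 4 sodium beta genes Scn3b rose. Among the gamma genes, Cacng5 rose and 2 of 7 fell. In the calcium beta family 1 of 4 fell, and of the 3 L-type genes Cacna1d rose. No P/Q-, N- or R-type gene, no T-type gene and no alpha2delta gene passed. Of the P/Q-, N- and R-type genes 2 of 3 and of the alpha2delta genes 3 of 4 had an unadjusted p under 0.05. So had 6369 of all 14602 genes. The values nearest to the threshold included those of Cacna2d4 (log2 fold change -0.47 ± 0.19 SE, edgeR adjusted p = 0.0524), Cacna1b (0.21 ± 0.08, adjusted p = 0.053) and Cacna2d2 (0.30 ± 0.12, adjusted p = 0.055).

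Cacng8, an AMPA receptor auxiliary gene, had the smallest p. Its level was 45.1 CPM in the lowest, 53.4 at the median and 65.3 in the highest GF saline library, against 62.0, 70.8 and 76.3 CPM in the H2O saline libraries. In 5 of 6 GF libraries it lay below every H2O library, and the highest GF library overlapped with them. The log2 fold change was -0.38 ± 0.09 (SE, edgeR adjusted p = 0.00148). Its neighbour on chromosome 7, Cacng7, fell as well, by 0.29 ± 0.09 on the log2 scale (edgeR adjusted p = 0.0184). Its mean was 62.2 ± 4.64 CPM in GF saline against 75.9 ± 8.40 CPM in H2O saline mice (SD, n = 6 each), with 4 of 6 GF libraries below every H2O library. Cacnb3, which codes for a beta subunit of neuronal channels, reached 155 ± 33.1 CPM in GF saline against 202 ± 26.2 CPM in H2O saline mice (log2 fold change -0.38 ± 0.11, edgeR adjusted p = 0.0112). GF saline replicate 1, at 210.4 CPM, was the only GF library within the H2O range of Cacnb3.

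The promoter windows of 4 genes are shown for these reasons. Cacng7 and Cacng8 lie next to each other and fell together before any correction. Neither call held with the correction for GC content and length described below. Scn1a belongs to a sodium channel cluster in which 4 of 5 genes rose before any correction, beside 18.0% of all genes. Scn1a, Scn3a, Scn7a and Scn9a have long transcripts, and genes with long transcripts rose more often than all genes, as described below. Scn2b had the smallest p of any channel gene in the series. Each window holds 250 bases before and 50 after a RefSeq start on GRCm38.p6, written in the direction of the gene. Capitals mark the GC box GGGCGG or its reverse complement CCGCCC, searched on both strands. The windows are chr7:3332575-3332874 (+) for Cacng7, chr7:3393792-3394091 (+) for Cacng8, chr2:66440788-66441087 (-) for Scn1a and chr9:45117626-45117925 (+) for Scn2b.
Cacng7: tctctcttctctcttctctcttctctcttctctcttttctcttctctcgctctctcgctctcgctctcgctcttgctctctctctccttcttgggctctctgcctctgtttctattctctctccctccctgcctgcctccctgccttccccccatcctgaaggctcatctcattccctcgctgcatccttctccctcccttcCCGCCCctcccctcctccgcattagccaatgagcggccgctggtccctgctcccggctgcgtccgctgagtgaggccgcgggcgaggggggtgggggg
Cacng8: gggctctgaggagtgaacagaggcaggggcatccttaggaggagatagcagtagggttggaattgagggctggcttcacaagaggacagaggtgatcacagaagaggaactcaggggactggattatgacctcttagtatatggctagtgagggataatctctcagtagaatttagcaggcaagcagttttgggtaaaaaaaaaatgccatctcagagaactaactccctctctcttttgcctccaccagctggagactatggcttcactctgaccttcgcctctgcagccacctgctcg
Scn1a: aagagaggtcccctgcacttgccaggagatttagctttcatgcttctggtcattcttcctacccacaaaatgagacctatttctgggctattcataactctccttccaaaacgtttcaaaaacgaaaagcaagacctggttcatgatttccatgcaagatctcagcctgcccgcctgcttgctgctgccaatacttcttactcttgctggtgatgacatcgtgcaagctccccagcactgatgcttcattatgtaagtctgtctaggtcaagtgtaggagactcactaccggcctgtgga
Scn2b: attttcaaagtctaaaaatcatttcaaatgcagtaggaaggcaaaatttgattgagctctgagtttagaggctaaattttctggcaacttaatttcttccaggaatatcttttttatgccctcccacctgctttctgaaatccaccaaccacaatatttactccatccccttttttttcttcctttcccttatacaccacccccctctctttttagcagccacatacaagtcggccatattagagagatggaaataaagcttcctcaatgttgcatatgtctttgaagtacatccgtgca
The RefSeq start used lies 130 bases before the GENCODE start of Cacng7, 3359 bases inside that of Cacng8, 3 bases inside that of Scn1a and 94 bases inside that of Scn2b, so the Cacng8 window is not at its most upstream start. GC content was 62.0% in the Cacng7 window, 50.0% for Cacng8, 47.3% for Scn1a and 38.3% for Scn2b. The Cacng7 window held 1 GC box and the other windows none. A GC box stood in 41.7% of 36 windows of 26 channel genes and in 35.7% of all 32851 windows.

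Scn3b, a beta subunit gene, had 172, 241 and 252 CPM as lowest, median and highest GF saline value, against 191, 197 and 208 CPM in H2O saline mice. Here 5 of 6 GF libraries were above every H2O library, and GF saline replicate 5 was below all of them. Scn3b rose by a log2 fold change of 0.21 ± 0.06 (edgeR adjusted p = 0.00933).

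On chromosome 2 the genes Scn3a, Scn2a1, Scn1a, Scn9a and Scn7a form a cluster, in this order by the RefSeq annotation of GRCm38.p6. All 5 had a positive log2 fold change in GF saline against H2O saline mice before any correction. With the correction for GC content and length described below, Scn1a, Scn3a and Scn7a did not pass, and Scn3a turned negative. Scn1a, the pore gene prominent in fast-spiking interneurons, had a mean of 139 ± 29.9 CPM in GF saline against 101 ± 24.7 CPM in H2O saline mice (0.46 ± 0.17, edgeR adjusted p = 0.0376). Scn3a, a pore gene most active before birth, had a mean of 97.4 ± 19.7 CPM in GF saline against 80.5 ± 8.96 CPM in H2O saline mice (0.28 ± 0.11, edgeR adjusted p = 0.0495). Scn2a1 had a log2 fold change of 0.29 ± 0.09 (edgeR adjusted p = 0.0162). Scn9a, a gene of pain-sensing and hypothalamic neurons, did not pass (0.49 ± 0.22, edgeR adjusted p = 0.0818). Scn7a passed with 3 to 22 reads per GF saline library against 3 to 9 reads per H2O saline library (1.14 ± 0.39, edgeR adjusted p = 0.0251).

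Among gamma genes that passed, Cacng5 went against Cacng7 and Cacng8. It had 26.5, 27.3 and 31.0 CPM as lowest, median and highest value in GF saline mice, and 17.1, 22.7 and 27.6 CPM in H2O saline mice. The groups overlapped, with 3 of 6 GF libraries above every H2O library, and the log2 fold change was 0.34 ± 0.12 (edgeR adjusted p = 0.0293). Cacna1d, an L-type pore gene whose channel opens at relatively negative voltages, ranged from 46.9 to 63.2 CPM in GF saline mice, with a median of 50.9, against 42.6 to 44.3 CPM in H2O saline mice, with a median of 43.6. It was the only channel gene whose groups did not overlap here, which was so for 9.37% of all genes (0.26 ± 0.09, edgeR adjusted p = 0.0212).

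**Figure D2:**
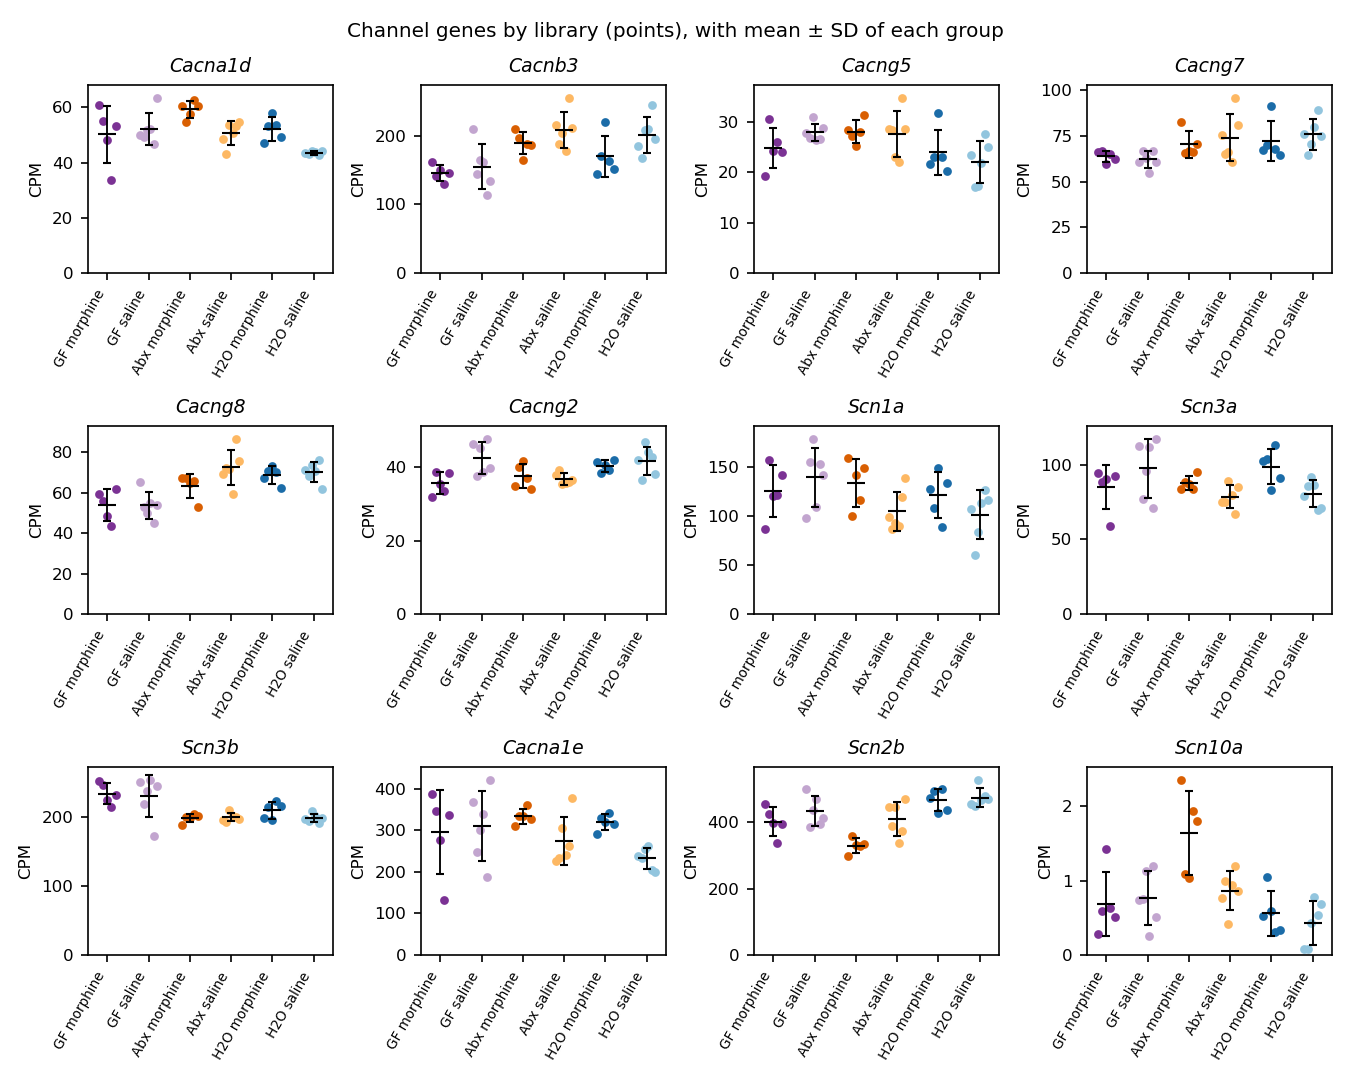
Level in CPM of 12 channel genes in each library, by group from GF morphine to H2O saline. Points are libraries and bars the mean ± SD of a group (n = 5 after morphine, n = 6 after saline). Cacng8 stands at 45.1 to 65.3 CPM in GF saline against 62.0 to 76.3 CPM in H2O saline libraries, and Scn2b at 297 to 358 CPM in Abx morphine against 427 to 499.9 CPM in H2O morphine libraries.

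The calls were refitted without each library in turn. In GF saline against H2O saline mice, Cacnb3, Cacng8 and Scn3b passed in 12 of 12 fits that left out a library, Cacna1d and Cacng7 in 11, Cacng5 in 8, Scn7a in 7, Scn1a in 6 and Scn3a in 3. The number of channel genes past the threshold ranged from 6 without GF saline replicate 6 to 15 without GF saline replicate 1. It was 13 without GF saline replicate 5. The share of all genes called in those fits is not given here. With upper-quartile scaling 10 channel genes passed as well, but 4 were higher and 6 lower, against 7 and 3 with the usual scaling. Of all genes 34.1% then passed, 14.5% higher and 19.6% lower.

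Transcript length and base composition moved with these differences. The channel genes are long: the median of the longest transcript was 6.25 kb in the 35 tested channel genes and 3.45 kb in all genes tested, and the median genomic span was 111 kb against 25.2 kb. The 7 channel genes that rose had transcripts of 3.71 to 9.66 kb, with a median of 8.39 kb and a median GC content of 47.8%. The 3 that fell had transcripts of 1.90 to 2.73 kb, with a median of 2.21 kb and a median GC content of 61.3%. Of all genes with transcripts longer than 5360 bases, 36.6% rose and 4.04% fell in GF saline mice, and 21 of the 35 channel genes are that long. Of those 21, 5 rose and 0 fell. Across 14494 genes the log2 fold change had a Spearman rho of 0.335 with transcript length and -0.494 with GC content. Across the 35 channel genes rho was 0.597 and -0.536. These are descriptions over genes of the same libraries, which are not independent replicates.

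With offsets corrected for GC content and length in each library, 5 channel genes passed, 4 higher and 1 lower, beside 18.5% of all genes, 11.2% higher and 7.31% lower. Cacng5 (0.41 ± 0.12, edgeR adjusted p = 0.016) and Scn3b (0.18 ± 0.06, adjusted p = 0.0253) were still higher in GF saline mice. The alpha2delta gene Cacna2d2 passed here (0.35 ± 0.12, adjusted p = 0.0425). The calls of the lower genes were lost: the corrected log2 fold change was -0.10 for Cacnb3, -0.07 for Cacng7 and -0.02 for Cacng8 (edgeR adjusted p = 0.541, 0.657 and 0.924). Scn3a turned to -0.06 and the beta gene Cacnb4 to -0.31 (adjusted p = 0.0469), against 0.28 and 0.07 uncorrected. Scn1a (0.18), Cacna1d (0.11) and Scn7a (0.81) kept a positive sign without passing.

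**Figure D3:**
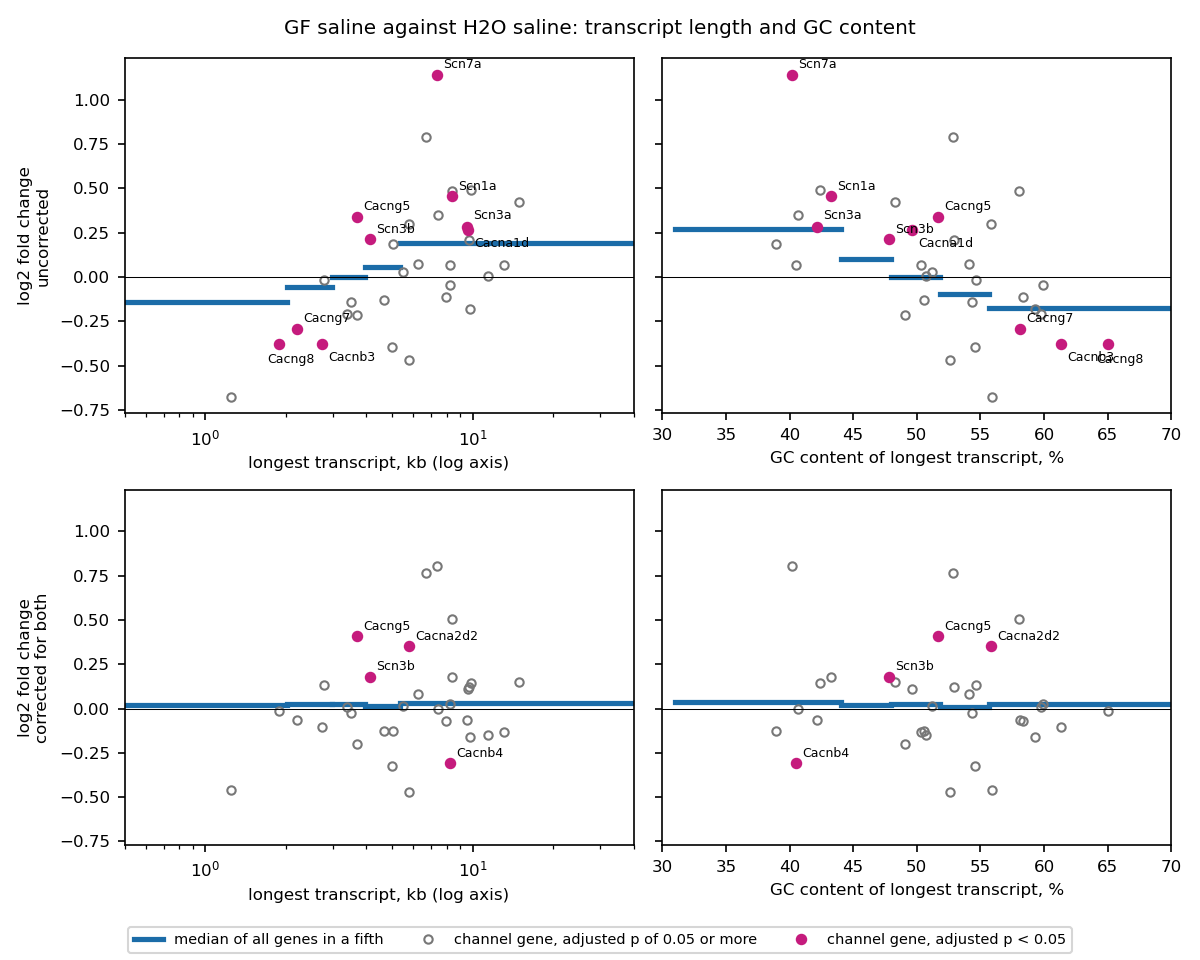
Log2 fold change of GF saline against H2O saline mice, uncorrected above and corrected for GC content and length below, by length of the longest transcript (log axis) and by GC content. Circles are 33 tested channel genes, filled where the adjusted p is under 0.05, and lines are medians of all genes in 5 bins of equal number, which run beyond the axis limits at the ends. Uncorrected, the median of all genes is -0.14 in the bin of shortest transcripts and 0.19 in that of the longest, and corrected they are 0.02 and 0.03.

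Some markers of neighbouring tissue also differed between these groups, but no cortical glutamatergic marker was called (smallest edgeR adjusted p = 0.0786). The summed level of 8 cortical glutamatergic markers ran from 187 to 877 CPM in GF saline and from 395 to 1075 CPM in H2O saline libraries. The sum of 8 hypothalamic and pituitary markers ran from 4.66 to 94.1 CPM, with a median of 33.9, in GF saline and from 3.61 to 46.7 CPM, with a median of 7.49, in H2O saline libraries, and 4 of its 5 tested members were called higher. Of 4 endothelial markers 3 were called lower, with a median log2 fold change of -0.55, and of 5 astrocyte markers 2 were called higher. Also lower were 2 of 4 mural cell markers, with a median of -0.51, 2 of 10 medium spiny neuron markers, with a median of -0.31, and 1 of 5 microglial markers, while 1 of 4 septal and 1 of 6 oligodendrocyte markers were higher. Of all genes 15.0% were called lower and 18.0% higher in this comparison. The oligodendrocyte list had a median of -0.04 despite its 1 higher call. A further fit took the mean levels of the cortical glutamatergic and of the hypothalamic and pituitary markers as covariates. In it 8 channel genes passed and all were higher in GF mice, beside 20.7% of all genes, 11.8% higher. Cacna1d, Cacng5, Scn3a, Scn3b and Scn7a kept their calls, and Cacna1e (0.62 ± 0.19, edgeR adjusted p = 0.0231), Cacna2d1 (0.57 ± 0.17, adjusted p = 0.0171) and Cacnb2 (0.25 ± 0.09, adjusted p = 0.0462) passed in addition. Scn1a (0.37 ± 0.20, adjusted p = 0.185), Cacnb3, Cacng7 and Cacng8 fell short. Scn3b and Cacng5 were called both with this correction and with that for GC content and length. Scn3b did not pass in a fit of these groups alone (edgeR adjusted p = 0.0615) or with the replicate number as a block (0.0652), and Cacng5 did not pass with upper-quartile factors (0.0525).

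Levels of Scn4b varied with the share of medium spiny neuron markers from library to library. Its mean was 866 ± 464 CPM in GF saline against 1142 ± 197 CPM in H2O saline mice (SD, n = 6 each; -0.40 ± 0.26, edgeR adjusted p = 0.246). Of the 10 medium spiny neuron markers, 2 were called lower in the same comparison, beside 15.0% of all genes. The lowest Scn4b value, 277 CPM, was in GF saline replicate 5, the library with the lowest marker sum. The fit with covariates used only the cortical and the hypothalamic and pituitary markers. The part of medium spiny neurons and other cell types in the differences of channel genes was not tested.

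**Figure D4:**
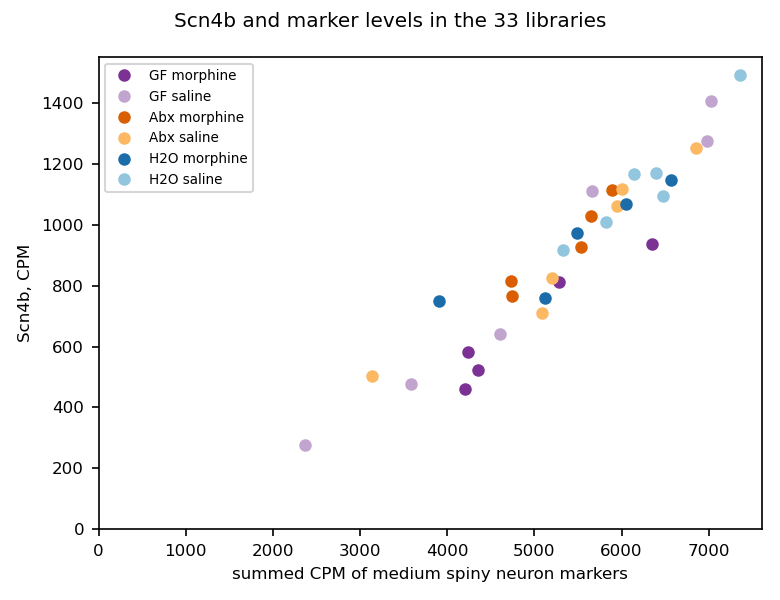
Scn4b level against the summed level of 10 medium spiny neuron markers, both in CPM. Each point is a library, coloured by group. Scn4b runs from 277 CPM in the library with the lowest marker sum, 2370.4 CPM, to 1492 CPM in an H2O saline library.

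GF saline mice were also set against Abx saline mice. These groups differ in microbiome, absent or depleted, and in breeding facility. The GF saline libraries are those of the comparison above. Of 35 channel genes 6 passed, 3 higher and 3 lower, beside 27.3% of all genes, 14.4% higher and 12.9% lower. Cacng8 stood at 45.1, 53.4 and 65.3 CPM (lowest, median and highest) in GF saline and at 59.3, 72.0 and 86.3 CPM in Abx saline mice. In 5 of 6 GF libraries it was below every Abx library (-0.42 ± 0.09, edgeR adjusted p = 0.000765). Cacnb3 had 114, 153 and 210.4 CPM in GF saline and 177, 208 and 255 CPM in Abx saline mice, again with 5 of 6 GF libraries below every Abx library (-0.42 ± 0.11, edgeR adjusted p = 0.00608). Cacng7 fell by 0.25 ± 0.09 (edgeR adjusted p = 0.0439).

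Scn3b, at 172, 241 and 252 CPM in GF saline against 192, 198 and 209 CPM in Abx saline mice, rose by 0.21 ± 0.06 (edgeR adjusted p = 0.0139). Scn3a rose by 0.32 ± 0.11 (edgeR adjusted p = 0.032). Cacng2, which codes for stargazin, the founding AMPA receptor auxiliary subunit, went against the other called gamma genes. It had 37.6, 42.5 and 47.7 CPM in GF saline and 35.5, 36.3 and 39.4 CPM in Abx saline mice, and 4 of 6 GF libraries were above every Abx library (0.21 ± 0.07, edgeR adjusted p = 0.0239). In GF saline against H2O saline mice its log2 fold change was 0.03 ± 0.07 (edgeR adjusted p = 0.775). Cacnb3, Cacng8 and Scn3b passed in 12 of 12 fits without a library, Cacng2 in 9, Scn3a in 6 and Cacng7 in 5. After the correction for GC content and length 3 channel genes passed, Cacng2, Scn3b and Cacng3, each higher in GF mice, beside 15.8% of all genes, 9.22% higher. With tissue covariates Cacnb3 (-0.06 ± 0.08, edgeR adjusted p = 0.694), Cacng7 (-0.12 ± 0.10, adjusted p = 0.462) and Cacng8 (-0.22 ± 0.09, adjusted p = 0.113) did not pass. Nor did Cacng2 (0.22 ± 0.09, adjusted p = 0.0894), while Scn3a and Scn3b passed (edgeR adjusted p = 0.0438 and 0.00717). Cacng2 also fell short with upper-quartile factors (edgeR adjusted p = 0.0593). In a fit of these groups alone Cacng2, Scn3a and Scn3b did not pass (edgeR adjusted p = 0.0597, 0.0800 and 0.0936). Between these groups 5 of 5 tested hypothalamic and pituitary markers and 3 of 5 astrocyte markers were higher in GF mice, and 2 of 8 cortical, 2 of 4 endothelial and 2 of 4 mural cell markers were lower. Septal, oligodendrocyte and microglial lists had 1 call each. Of all genes 14.4% were called higher and 12.9% lower in this comparison. The covariates were the cortical and the hypothalamic and pituitary levels alone. The part of the other cell types in the differences of channel genes was not tested.

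In Abx saline against H2O saline mice no channel gene passed by edgeR, beside 0.116% of all genes, and none by DESeq2, beside 0.735%. An unadjusted p under 0.05 was found for 1752 of 14602 genes and for 8 of 35 channel genes. Among them were Scn2b (-0.21 ± 0.08), Cacng5 (0.32 ± 0.12) and Cacng2 (-0.18 ± 0.07), with edgeR adjusted p of 0.26 to 0.273.

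Within morphine-treated mice, GF mice differed from H2O mice in 1 channel gene by edgeR, which was lower, beside 5.78% of all genes, 2.48% lower. Cacng8 had 59.3, 56.1, 48.2, 43.5 and 62.0 CPM in the 5 GF morphine libraries, against 67.3, 70.9, 73.4, 70.2 and 62.1 CPM in the 5 H2O morphine libraries. The groups did not overlap, which was so for 5.71% of all genes, but the highest GF and the lowest H2O library lay next to each other. It fell by 0.35 ± 0.10 (edgeR adjusted p = 0.0263), and passed in 5 of 10 fits without a library: the count was 0 without H2O morphine replicate 3, 4 or 5 or GF morphine replicate 3 or 5, where its log2 fold change was still negative. It did not pass with the correction for GC content and length (-0.22, edgeR adjusted p = 0.157) or with the tissue covariates (-0.20, adjusted p = 0.289). The summed cortical markers were 203 to 244 CPM in GF morphine and 233 to 1589 CPM in H2O morphine libraries, and 3 of 5 tested hypothalamic and pituitary markers were higher in GF mice.

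Abx mice differed from H2O mice after morphine in Scn2b and Scn10a, 2 of 35 channel genes, 1 lower and 1 higher, beside 10.4% of all genes, 5.86% lower and 4.54% higher. Scn2b, a beta subunit gene that links sodium channels to the extracellular matrix, had 297, 358, 330.2, 327 and 335 CPM in Abx morphine and 474, 492, 427, 499.9 and 436 CPM in H2O morphine libraries. Every Abx library was below every H2O library, as in 13.2% of all genes in either direction. Scn2b fell by 0.50 ± 0.08 on the log2 scale, to 0.707 of the H2O level (edgeR adjusted p = 0.000178). The call held in 10 of 10 fits without a library and in each of the 7 other settings tried, with log2 fold changes of -0.55 to -0.49 in those settings. Scn2b has a 4.66 kb transcript with a GC content of 50.5%, against medians of 3.45 kb and 49.9% in all genes tested.

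Scn4b, the neighbour of Scn2b on chromosome 9 and also a beta subunit gene, had a log2 fold change of -0.01 (edgeR adjusted p = 0.986) in the same comparison. Medium spiny neuron markers summed to 4725 to 5888 CPM in Abx morphine and 3909.6 to 6562 CPM in H2O morphine libraries, and cortical markers to 417 to 1267 CPM in Abx morphine and 233 to 1589 CPM in H2O morphine libraries, with no gene of either list called. Of 5 microglial markers 4 were lower in Abx mice, with a median log2 fold change of -0.44 and a summed level of 205 to 238 CPM in Abx morphine against 257 to 298 CPM in H2O morphine libraries. Lower as well were 2 of 4 oligodendrocyte precursor markers, with a median of -0.40, 2 of 5 astrocyte markers, 1 of 4 mural cell markers and 1 of 5 hypothalamic and pituitary markers. Of all genes 5.86% were lower here, and the part of these cell types in the fall of Scn2b was not tested. Scn10a had 26, 14, 13, 25 and 25 reads in Abx morphine and 5, 14, 9, 4 and 4 reads in H2O morphine libraries, or 1.03 to 2.34 and 0.303 to 1.05 CPM. The groups touched at 1 library each. Scn10a rose by a log2 fold change of 1.51 ± 0.38 (edgeR adjusted p = 0.00854), also in 10 of 10 fits without a library, at the level of a few reads.

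**Figure D5:**
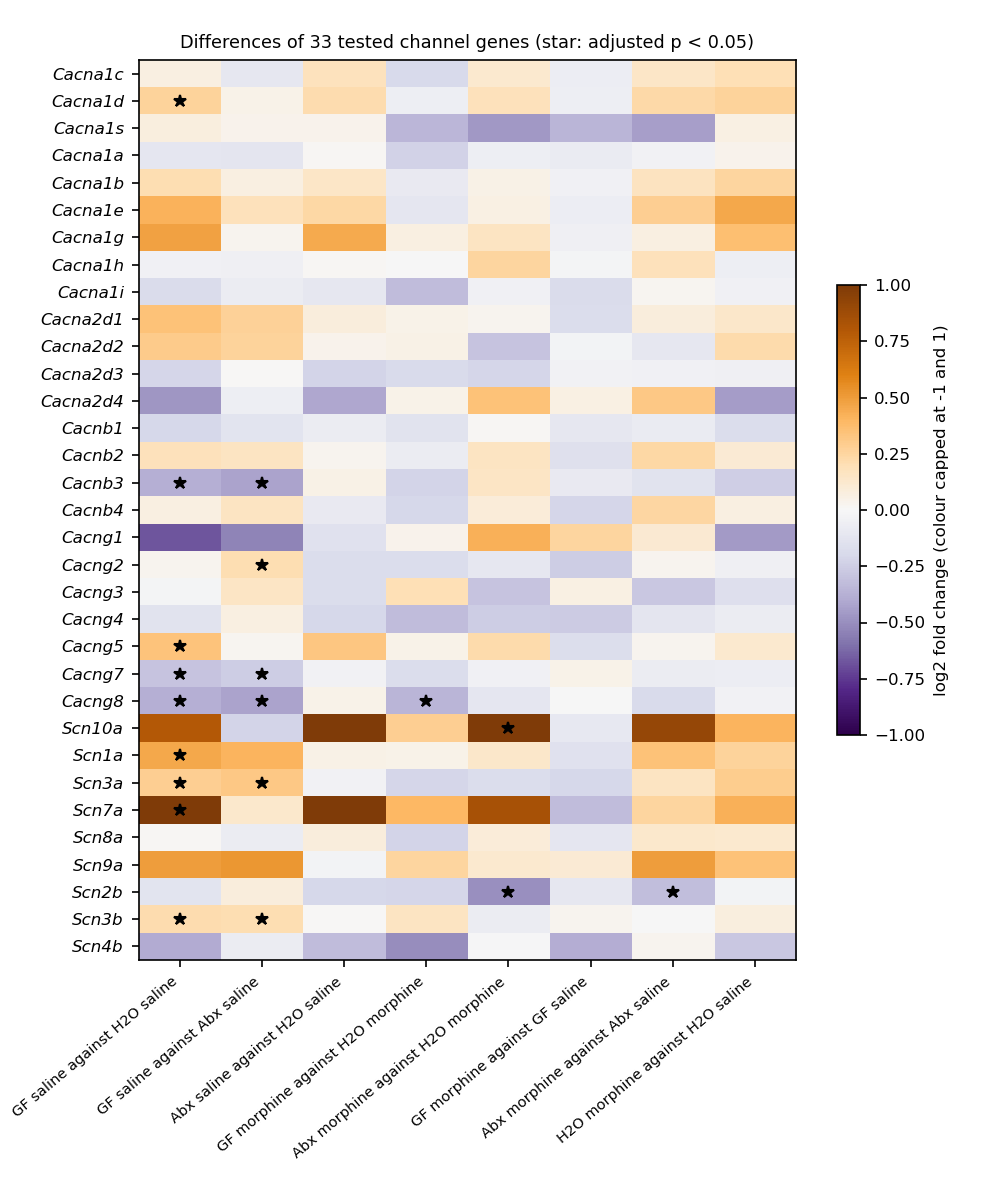
Log2 fold change of 33 tested channel genes in 8 pairwise comparisons, with genes ordered by subfamily and stars where the edgeR adjusted p is under 0.05. Colour is capped at -1 and 1. Stars stand mainly in the columns of GF saline mice, 9 against H2O saline and 6 against Abx saline. Of all genes 32.9% and 27.3% passed in these comparisons.

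Morphine was compared with saline within each microbiome state. Under antibiotics Scn2b fell, the only 1 of 35 channel genes to pass, beside 5.37% of all genes, 3.25% lower. It had 297, 358, 330.2, 327 and 335 CPM in Abx morphine libraries, against 338, 417 and 468 CPM as lowest, median and highest Abx saline value. In 4 of 5 morphine libraries it was below every saline library (-0.32 ± 0.08, edgeR adjusted p = 0.0183). The call was lost without Abx saline replicate 1 (adjusted p = 0.057), Abx morphine replicate 1 (adjusted p = 0.0763) or Abx morphine replicate 3 (adjusted p = 0.0505). Of 5 microglial markers 2 were lower after morphine here, and of 4 mural cell markers 1, and their part in the difference was not tested. The morphine response of Abx minus that of H2O mice was -0.29 ± 0.11 for Scn2b and did not pass (edgeR adjusted p = 0.472), so a difference between the states was not shown.

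Cacna1d, Cacnb2 and Cacnb4 did not overlap between Abx morphine and Abx saline mice, as was so for 6.41% of all genes, without passing in the fit of all groups. Cacnb2 ranged from 72.9 to 81.2 CPM in Abx morphine and from 62.0 to 71.9 CPM in Abx saline mice (0.24 ± 0.08, edgeR adjusted p = 0.0659). Cacnb4 ranged from 192 to 215 CPM in Abx morphine and from 161 to 189 CPM in Abx saline mice, and Cacna1d from 54.80 to 62.8 CPM in Abx morphine and from 43.1 to 54.75 CPM in Abx saline mice. In a fit of these groups alone all 3 passed, with log2 fold changes of 0.23 to 0.25 (edgeR adjusted p = 0.0384 for Cacna1d, 0.0136 for Cacnb2 and 0.0138 for Cacnb4), beside 7.99% of all genes. Corrected for GC content and length they were 0.14 for Cacna1d, 0.14 for Cacnb2 and 0.10 for Cacnb4.

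In H2O mice, no channel gene passed between morphine and saline by edgeR, beside 0.0% of all genes, and none by DESeq2, beside 2.82%. With edgeR 7 of 35 channel genes had an unadjusted p under 0.05, beside 2223 of 14602 genes. The calcium channel pore genes Cacna1b, Cacna1d and Cacna1e did not overlap between the groups, as was so for 5.78% of all genes. Cacna1e had 292, 331, 319, 342 and 314 CPM in H2O morphine libraries, against 201, 235 and 261 CPM as lowest, median and highest H2O saline value (0.46 ± 0.18, edgeR adjusted p = 0.21). Cacna1b had 165, 168, 171, 159.9 and 164 CPM in H2O morphine, against 126, 139 and 154 CPM in H2O saline mice (0.25 ± 0.09, edgeR adjusted p = 0.167). Cacna1d had 47.2, 53.1, 58.0, 53.4 and 49.1 CPM in H2O morphine, against 42.6, 43.6 and 44.3 CPM in H2O saline mice (0.26 ± 0.09, edgeR adjusted p = 0.165). All 5 morphine libraries were thus the higher ones for each of these genes.

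In a fit of these groups alone these 3 genes were among 4 channel genes that passed, all higher after morphine, beside 6.99% of all genes, 4.44% higher (edgeR adjusted p = 0.0113 for Cacna1b, 0.013 for Cacna1d and 0.00383 for Cacna1e). Across the 35 channel genes the log2 fold change in H2O mice had a Spearman rho of 0.712 with transcript length, and across 14494 genes of 0.426. Corrected for GC content and length, the values were 0.10 for Cacna1b, 0.09 for Cacna1d and 0.21 for Cacna1e, with edgeR adjusted p of 0.527, 0.618 and 0.567.

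In GF mice no channel gene passed between morphine and saline by edgeR, beside 0.00685% of all genes by either tool, and none by DESeq2. Of the channel genes only Cacng2 had an unadjusted p under 0.05, beside 969 of 14602 genes. It had 32.0, 38.9, 35.5, 33.6 and 38.6 CPM in GF morphine libraries, against 37.6, 42.5 and 47.7 CPM in GF saline mice (-0.25 ± 0.07, edgeR adjusted p = 0.58). Averaged over the 3 states, morphine moved no channel gene past the threshold by edgeR, beside 0.959% of all genes, and 1 by DESeq2, beside 2.82%, Scn2b (-0.15 ± 0.05). With edgeR 10 of 35 channel genes had an unadjusted p under 0.05, beside 2372 of 14602 genes. Without GF morphine replicate 5 the average passed for 3 channel genes. The morphine response of GF minus that of H2O mice passed for none by edgeR or DESeq2, beside 0.0% of all genes by edgeR and 2.01% by DESeq2. It had an unadjusted p under 0.05 for 2327 of 14602 genes and for 6 of 35 channel genes. Those 6 values were all negative, from -0.53 for Cacna1e and -0.50 for Scn3a to -0.21 for Cacng2. Across all genes this difference had a rho of -0.497 with transcript length. The response of Abx minus that of H2O mice likewise passed for none by either tool, beside 0.11% of all genes by edgeR and 0.438% by DESeq2. Here 2 of 35 channel genes had an unadjusted p under 0.05, beside 1157 of 14602 genes.

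The channels' partners were read from a list of 31 genes, of which 30 were tested. In GF saline against H2O saline mice 5 rose and 3 fell, 8 of 30, beside 32.9% of all genes. All partner values are from the fit without corrections. Whether they hold with those for GC content and length or for tissue is not given here. Nalcn, the sodium leak channel gene, rose by a log2 fold change of 0.32 ± 0.06 (edgeR adjusted p = 0.000335), and Unc80, which codes for its scaffold, by 0.37 ± 0.10 (adjusted p = 0.00615). Gem, a small GTPase gene that restrains calcium channels, rose by 0.85 ± 0.27, and Fgf12, which codes for a sodium channel binding protein, by 0.32 ± 0.12, beside Scn2a1. Cabp1, which codes for a calcium-binding modulator of channels, fell by 0.74 ± 0.25, Stac2, an L-type channel adaptor gene, by 0.60 ± 0.23, and Tpcn1, an endolysosomal cation channel gene, by 0.18 ± 0.06. In GF saline against Abx saline mice Nalcn and Unc80 rose, and Cabp1 and Stac2 fell, 4 of 30, beside 27.3% of all genes. After morphine, Abx mice had lower Fgf11 (-0.30), Nalcn (-0.25) and Cachd1 (-0.37) than H2O mice, 3 of 30, beside 10.4% of all genes, and lower Fgf11 (-0.25) than Abx saline mice, 1 of 30, beside 5.37% of all genes. No partner passed by edgeR in Abx saline against H2O saline or H2O morphine against H2O saline mice. None passed in GF morphine against GF saline or GF morphine against H2O morphine mice. In that order 0, 6, 1 and 8 partners had an unadjusted p under 0.05, beside 1752, 2223, 969 and 3494 of 14602 genes.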

How the data were processed

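The authors deposited a table of read counts per gene symbol and a second table of a normalised signal, which over 10852 genes equals the deposited counts divided by a constant of each library. Counts were used throughout. The tools named per the submitters' processing notes are STAR 2.4.0, FastQC and edgeR. For the genome build, the annotation, the program that counted and its use of strand, the entry is "not given in the sources used here", so reads shared by overlapping genes cannot be traced. Per the labels' protocols, polyadenylated RNA was amplified with a SMARTer kit before library preparation. Entries that name no gene held 19.3% to 35.4% of the tallied reads and were left out. Spreadsheet software had turned 27 names into dates; 19 were restored and 8 left out.

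Tests used R 4.3.3, edgeR 4.0.16 (glmQLFit and glmQLFTest, TMM factors, filterByExpr at a minimum count of 10, 14602 genes, 33 libraries in 6 groups, 27 residual degrees of freedom) and Benjamini-Hochberg adjustment over all genes, two-sided, at 0.05. Alternatives were DESeq2 1.42.0, upper-quartile factors, no filter, fits of the compared groups alone, a replicate block, offsets for GC content and length, neighbouring-tissue covariates and leaving out each library. Transcript length and GC content come from GENCODE M21, neighbours and promoters from RefSeq GRCm38.p6. The code was tested on simulated data. Libraries were not described as repeats of a mouse; within groups no pair differed by less than sampling noise (chi-squared per degree of freedom 3.07 or more). Nothing beyond the titles says that libraries come from separate animals, so p-values measure only the spread between these samples. Gene names without a stated counting rule leave near-identical copies uncertain.

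The rule allowed every channel gene to be named. Values by library were given for the 3 called genes with the smallest p in a comparison and for called genes that went against most called members of their subfamily; genes outside the family came from the partner list. Genes with groups that do not overlap were added after their values were seen. The members and lists were chosen with earlier results of these data known. Some channel genes enter the fits and counts but are not reported here by name.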

Additional observations from a re-analysis of the deposited data

Results flagged for a closer look

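Libraries that stood far from the rest of their group were looked for in 204 combinations of a channel gene and a group, of which 17 were found. Chance gives about 1 in 20 groups. H2O morphine replicate 4 accounted for 3 of them, with the highest CPM of its group for Cacna2d1 (132), Cacng5 (31.8) and Cacng7 (91.4). Abx morphine replicate 1 was the highest of its group for Cacng7 (83.0 CPM). Abx morphine replicate 3 was highest for Cacna1c (155.6 CPM) and Scn9a (14.5 CPM), replicate 2 for Scn7a (2.55 CPM), and replicate 5 was lowest for Cacng8 (53.0 CPM). Abx saline replicate 5 was highest for Cacna2d1 (139 CPM) and lowest for Cacna2d4 (2.07 CPM).

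Among GF libraries, saline replicate 5 was highest for the low-count genes Cacna1s (2.39 CPM) and Scn11a (1.99 CPM), saline replicate 6 was highest for Cacna1d (63.2 CPM), and morphine replicate 5 was lowest for Scn3a (59.0 CPM). In the remaining H2O groups, morphine replicate 3 was highest for Cacna1s (1.72 CPM), saline replicate 5 for Scn2b (525 CPM) and saline replicate 6 for Cacna2d4 (5.99 CPM).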

How the results depend on the processing

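Counts in this section that have no share of all genes beside them show only how a setting moved the count. In GF saline against H2O saline mice 10 channel genes passed, beside 32.9% of all genes. DESeq2 called 16 (11 higher, 5 lower), and its share of all genes in this comparison is not given here. The correction for GC content and length called 5, beside 18.5% of all genes. Under that correction Scn3a reversed to -0.062 and Cacnb4 to -0.31. In GF saline against Abx saline mice the count of 6 became 3 with the correction and 2 in a fit of these groups alone. In Abx morphine against Abx saline mice the count of 1 became 2 with DESeq2, 2 with upper-quartile factors, 3 with tissue covariates and 4 in a fit of these groups alone. In GF morphine against H2O morphine mice the count of 1 became 0 with the correction, 0 with covariates and 0 in a fit of these groups alone. Counts of 0 became 1 for Abx saline against H2O saline mice with covariates, 4 for H2O morphine against H2O saline mice in a fit of these groups alone, and 1 for the average morphine response with DESeq2. The average has no fit of its groups alone. The causes were not tested. For genes called in the fit of all groups, 280 values under other settings or without a library kept the call and 91 lost it. Among values of genes not called there, 76 gained a call, and those that stayed uncalled are not counted. The 2 reversed values are those of Scn3a and Cacnb4.

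Leaving out single libraries gave 6 to 15 channel genes in GF saline against H2O saline, 4 to 7 in GF saline against Abx saline, 0 to 2 in Abx morphine against Abx saline, 0 to 1 in GF morphine against H2O morphine, 2 to 3 in Abx morphine against H2O morphine mice and 0 to 3 for the average morphine response. It gave 0 to 0 in the other comparisons. The count for the average was 1 without Abx saline replicate 4 and 3 without GF morphine replicate 5, and that for Abx morphine against Abx saline mice was 2 without Abx morphine replicate 2.

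Replicate numbers recur between groups, but 66 same-numbered pairs had a mean correlation of 0.000437 and 2 of 31 libraries correlated best with their own number, so the samples share only a number. With the replicate number as a block, 7 channel genes passed in GF saline against H2O saline, 5 in GF saline against Abx saline, 1 in Abx morphine against Abx saline, 1 in GF morphine against H2O morphine and 2 in Abx morphine against H2O morphine mice, and 0 in the other comparisons. The depth of GF libraries limits the genes with few reads, Scn7a, Scn10a, Scn11a, Cacna1s and Cacng1.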
